A study of Mus musculus with 10 samples.

Results

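Amino acids enter a cell through membrane carriers, and 10 genes for such carriers were followed here: Slc3a2, Slc7a5, Slc7a11, Slc7a7, Slc7a1, Slc1a5, Slc1a4, Slc38a1, Slc38a2 and Slc6a14. They were chosen by name, as carriers of the cell surface, with earlier results of these data known. They make up 10 of the 19096 genes that the probes of the array could be paired with. All 10 had a probe that passed the filter on dim signals, as did 15586 of the 19096 genes. The array carried 21 probes for them, all of which passed that filter. Where a gene had more than 1 probe, the brightest on average across the arrays stands for it.

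RNA had been taken from 5 lungs labelled WT and from 5 lung tumours labelled SCC (squamous cell carcinoma), each put on 1 single-colour Agilent whole-genome array, with all mice aged 13 months and of a strain labelled B6.129. The SCC mice were CCSPiCreLkb1f/f, in which a Cre recombinase driven by the promoter of the club cell secretory protein, a gene of airway secretory cells, removes the floxed Lkb1 (Stk11) alleles. The WT mice carried the same floxed alleles without Cre (Lkb1f/f). Lkb1 is the kinase that activates AMPK, and its own level is not analysed here. The labels describe whole lung and whole tumour, so every value below comes from a mixture of cells, and more cells of a type and more RNA per cell cannot be told apart. Nothing in the labels says that each tumour came from a separate mouse.

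The 10 carriers fall into 4 kinds. Slc3a2 encodes the heavy chain (CD98hc, 4F2hc), which carries no amino acid itself and brings a light chain of the Slc7 family to the cell surface. Among its light chains, Slc7a5 (LAT1) brings in leucine and other large neutral amino acids, Slc7a11 (xCT) exchanges cystine for glutamate, and Slc7a7 (y+LAT1) exchanges arginine and lysine for neutral amino acids. Slc7a1 (CAT1) is a separate carrier of arginine, lysine and ornithine that needs no heavy chain. Slc1a5 (ASCT2) and Slc1a4 (ASCT1) are sodium-dependent exchangers, the former of glutamine and the latter of alanine, serine and cysteine. Slc38a1 (SNAT1) and Slc38a2 (SNAT2) pump small neutral amino acids with sodium, and Slc6a14 (ATB0,+) takes up neutral and basic amino acids with sodium and chloride. Several of them are known targets of ATF4, the transcription factor that responds to amino acid shortage, which binds with C/EBP partners at a C/EBP-ATF response element.

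The letters of that element, TGATGNAA on either strand, were looked for in RefSeq promoter windows of 300 bases (250 before and 50 after a transcription start, GRCm38.p6). They stood in 3.969% of 32851 windows of 27025 genes, and in at least 1 window of 3 of the 7 carriers with a window (4 of their 12 windows). Those 3 genes are shown because they differ in direction: Slc7a11 and Slc7a7 were higher in SCC and Slc1a4 was lower. Each stretch runs from 120 bases before to 25 after the start, lies on the minus strand and has the matches in capitals.
Slc7a11, chr3:50443589-50443733: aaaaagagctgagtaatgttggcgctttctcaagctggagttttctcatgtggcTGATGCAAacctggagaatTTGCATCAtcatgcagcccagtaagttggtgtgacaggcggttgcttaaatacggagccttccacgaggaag
Slc7a7, chr14:54417920-54418064: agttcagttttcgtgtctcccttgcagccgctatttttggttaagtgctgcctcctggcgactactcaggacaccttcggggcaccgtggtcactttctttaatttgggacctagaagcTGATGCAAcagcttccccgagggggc
Slc1a4, chr11:20332689-20332833: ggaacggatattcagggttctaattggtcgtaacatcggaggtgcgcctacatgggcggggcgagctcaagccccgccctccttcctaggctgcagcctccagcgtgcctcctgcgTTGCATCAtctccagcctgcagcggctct
Slc7a11 held 2 matches on opposite strands, beginning at positions -66 and -47 from the start. Slc7a7 held 1 match across the start, 1 farther upstream and 1 in a second window, at -243. Windows of 1 gene can overlap, and whether that match and the 1 across the start are the same site was not checked. The match of Slc1a4 also lay across the start. The antioxidant response element letters, TGACNNNGC on either strand, stood in 12.392% of windows and in 2 of the 12 windows of the carriers, 1 of Slc7a1 and 1 of Slc38a2. A match of letters is a description and shows no binding.

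Differences are SCC minus WT in log2 quantile-normalized signal, fitted with limma over all 30374 probes that passed the filter. A gene passed at a Benjamini-Hochberg adjusted p below 0.05, and was called if its difference was also at least 2-fold. Of the 10 carriers, 7 passed as higher in SCC, 2 passed as lower and 1 did not pass. Over all 15586 genes, 25.5% passed as higher and 28.4% as lower. Slc7a11, Slc6a14, Slc7a5 and Slc7a1 were called higher and Slc1a4 was called lower, which makes 5 of 10 against 24.9% of all genes (11.6% higher and 13.4% lower). The arrays of the 2 groups did not overlap for 6 of the 10, against 41.4% of all genes. The median difference of the 10 was 0.56, within a range of -1.40 to 3.32, and that of all genes was -0.04.

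**Figure D1:**
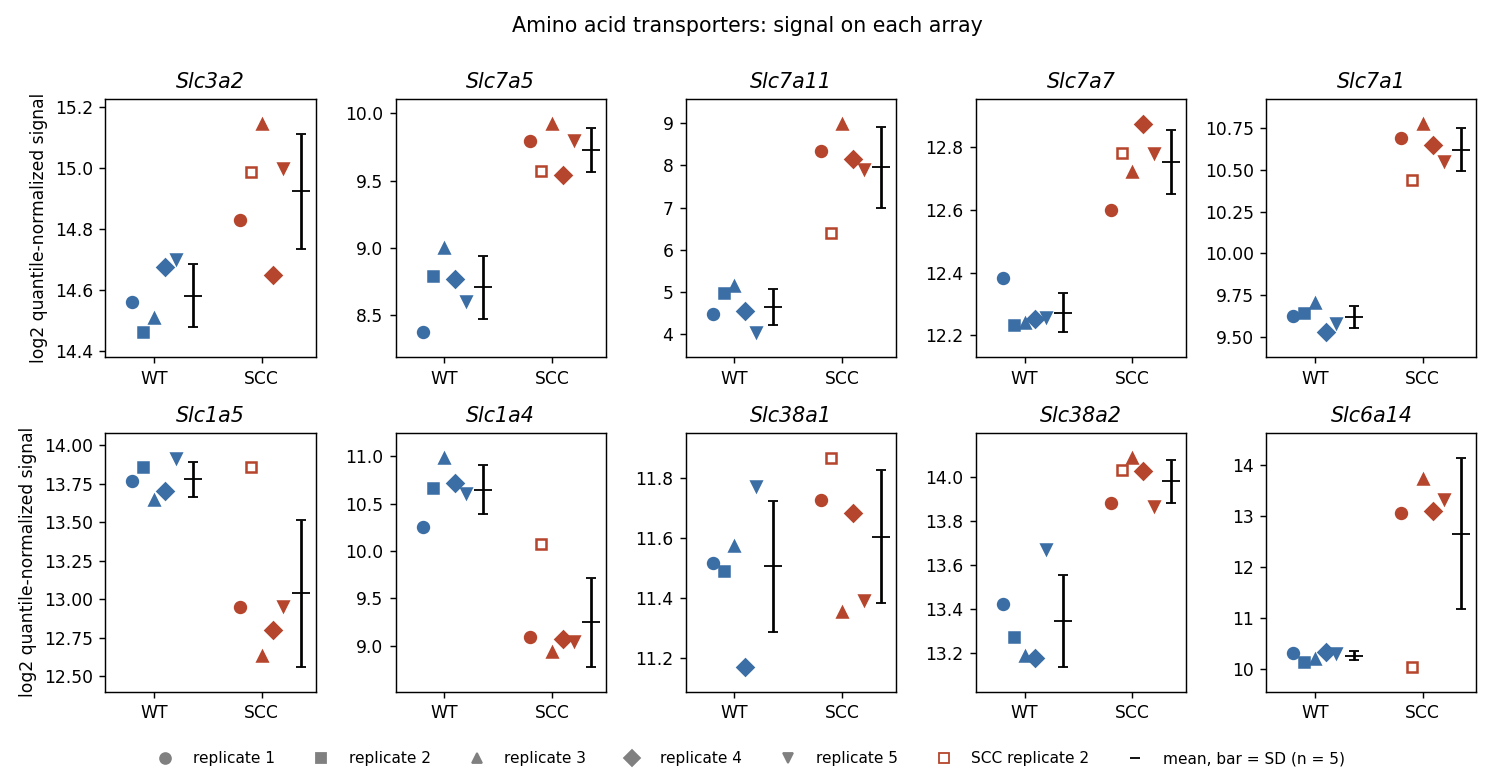
Log2 quantile-normalized signal of the brightest probe of each of the 10 carriers on the 5 WT (blue) and 5 SCC (red) arrays; each panel has its own scale, which does not start at 0, and bars are the mean ± SD. SCC replicate 2 (open square) lies among or near the WT arrays for Slc6a14 and Slc1a5 and nearer to them than the other SCC arrays for Slc7a11, Slc7a1 and Slc1a4.

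One tumour array stood apart from the others of its group. SCC 2 correlated with the WT arrays at 0.940 to 0.946 over probes, and no other SCC array exceeded 0.905. The mean log2 signal of 12 squamous markers, all of them called higher in SCC, was 4.71 to 5.02 on WT arrays, 10.67 on SCC 2 and 14.33 to 14.69 on the other SCC arrays. Of these markers, 5 were above background on no WT array. The mean of 8 endothelial markers, all of which passed as lower, was 14.30 to 14.53 on WT arrays, 13.01 on SCC 2 and 11.95 to 12.23 on the other tumours. Of 10 proliferation genes, 9 were called higher, and their mean was 8.35 to 9.09 on WT arrays, 9.99 on SCC 2 and 11.09 to 11.38 on the others. The part of these mixtures in the carriers' differences was not tested. On SCC 5, 90.2% of probes were well above background, against 71.0% to 74.3% on the other 9 arrays.

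The heavy chain rose slightly. Slc3a2 read 14.56, 14.46, 14.51, 14.67 and 14.70 on WT arrays 1 to 5 and 14.83, 14.99, 15.14, 14.65 and 15.00 on SCC arrays 1 to 5. Every SCC array except SCC 4 lay above all WT arrays. The difference was 0.34 (SE 0.11, 1.27-fold, limma adjusted p = 0.0258), and a dimmer probe gave 0.66 with no overlap (adjusted p = 0.00481). The brighter probe missed the threshold when WT 1, WT 2, WT 3 or SCC 3 was left out, with values of 0.34, 0.31, 0.32 and 0.29 and adjusted p of 0.0530, 0.0646, 0.0618 and 0.0594. It also missed it without SCC 2 and SCC 5 together (0.29, adjusted p = 0.0587) and with the replicate number as a block (adjusted p = 0.0848).

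The leucine carrier rose in every tumour. Slc7a5 read 8.37, 8.79, 8.997, 8.77 and 8.60 on the WT arrays and 9.80, 9.57, 9.92, 9.54 and 9.80 on the SCC arrays. The groups were fully separate, and SCC 2 lay among the other tumours. Its difference of 1.02 (SE 0.13, 2.03-fold, limma adjusted p = 0.000208) was close to the 2-fold limit, and fell under it at 0.94 without WT 1, 0.99 without WT 5, 0.97 without SCC 3, 0.83 with the normexp background correction and 0.99 with arrays weighted by quality.

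The cystine and glutamate exchanger rose in every tumour, with the largest difference of the 10 in the quantile-normalized values but not after the normexp background correction, where Slc6a14 was at 2.29. Slc7a11 read 4.48, 4.97, 5.13, 4.55 and 4.04 on the WT arrays, of which 4 were well above background, and 8.33, 6.39, 8.99, 8.14 and 7.93 on the SCC arrays. All tumours were above all WT lungs, with SCC 2 the lowest of them. The difference was 3.32 (SE 0.43, 10.01-fold, limma adjusted p = 0.000208). With normexp it was 1.49 (adjusted p = 0.000477). On 2 dimmer probes no WT array was well above background, so these were tested only through the tumours. In quantile-normalized signal the tumours were at least 3.63-fold and at least 5.28-fold higher there (adjusted p = 0.00142 and 0.000651). Each bound was taken against the lowest signal well above background on each WT array, and was not recomputed after normexp.

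Slc7a7, the light chain that moves arginine and lysine, rose by less. It read 12.38, 12.23, 12.24, 12.25 and 12.26 on the WT arrays and 12.60, 12.78, 12.72, 12.87 and 12.78 on the SCC arrays. The groups did not overlap, and SCC 2 was the second highest of the tumours. The difference was 0.48 (SE 0.081, 1.39-fold, limma adjusted p = 0.00100). Slc7a7 is also expressed in macrophages, whose 12 markers had a mean of 11.43 to 11.77 on WT arrays and 11.35 to 12.40 on SCC arrays, the lowest being SCC 2. Of those 12 markers 5 passed as higher and 3 as lower, against 25.5% and 28.4% of all genes, and 4 did not pass. Their part in the Slc7a7 difference was not tested.

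**Figure D2:**
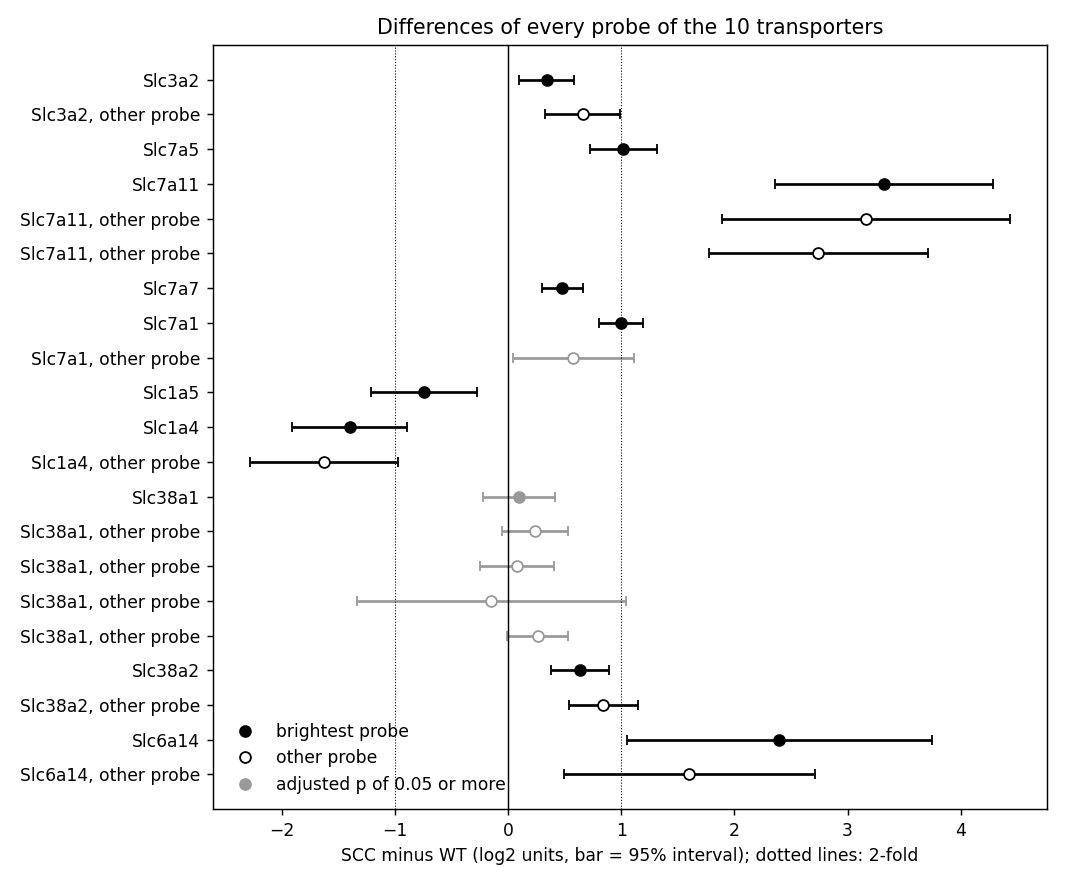
SCC minus WT difference (log2, point) with its 95% interval (bar) for all 21 probes of the 10 carriers; filled points are the brightest probe of a gene, grey marks an adjusted p of 0.05 or more and dotted lines mark a 2-fold difference. Probes of 1 gene have the same sign except among the 5 probes of Slc38a1, which run from -0.15 to 0.26.

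Slc7a1, the carrier of basic amino acids that works without a heavy chain, rose in every tumour. It read 9.62, 9.64, 9.71, 9.53 and 9.59 on the WT arrays and 10.69, 10.44, 10.77, 10.64 and 10.55 on the SCC arrays. The WT arrays spanned a narrow range and the tumours lay clear of it. The difference of 1.00 (SE 0.087, limma adjusted p = 2.29e-05) was 2.00-fold and so at the limit for a call. It stayed past the adjusted p threshold but under 2-fold, at 0.96 to 0.99, when WT 4, WT 5, SCC 1, SCC 3 or SCC 4 was left out, at 0.87 with normexp and at 0.79 as the mean over its 2 probes. A dimmer probe gave 0.58 and did not pass (adjusted p = 0.0695).

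Both exchangers of the Slc1 family were lower in the tumours. Slc1a5, the glutamine carrier, read 13.77, 13.86, 13.64, 13.70 and 13.92 on the WT arrays and 12.95, 13.86, 12.63, 12.80 and 12.95 on the SCC arrays. SCC 2 lay within the WT range and the other 4 tumours below it. The difference was -0.74 (SE 0.21, limma adjusted p = 0.0150), and -0.95 without SCC 2. It was under 2-fold and not called.

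Slc1a4, the carrier of alanine, serine and cysteine, read 10.26, 10.66, 10.98, 10.72 and 10.61 on the WT arrays and 9.10, 10.07, 8.93, 9.07 and 9.05 on the SCC arrays. The groups did not overlap, with SCC 2 just below the lowest WT array. The difference was -1.40 (SE 0.23, limma adjusted p = 0.000747), and a second probe gave -1.63 (adjusted p = 0.00137), again without overlap.

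The sodium-coupled pair behaved unequally. Slc38a2 read 13.42, 13.27, 13.18, 13.17 and 13.67 on the WT arrays and 13.88, 14.03, 14.09, 14.03 and 13.87 on the SCC arrays. The groups did not overlap, and the difference was 0.64 (SE 0.11, 1.55-fold, limma adjusted p = 0.00135). A second probe gave 0.84 (adjusted p = 0.000784).

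Slc38a1 read 11.52, 11.49, 11.57, 11.17 and 11.77 on the WT arrays and 11.72, 11.87, 11.35, 11.68 and 11.39 on the SCC arrays. The groups overlapped widely. Its difference of 0.10 had a 95% interval of -0.22 to 0.41 (limma adjusted p = 0.581), and none of its 5 probes passed.

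Slc6a14, the X-linked carrier of neutral and basic amino acids, was high in 4 tumours and not in the fifth. It read 10.31, 10.14, 10.19, 10.34 and 10.31 on the WT arrays and 13.06, 10.05, 13.72, 13.10 and 13.33 on the SCC arrays. SCC 2 lay below every WT array. The difference was 2.40 (SE 0.60, 5.26-fold, limma adjusted p = 0.00873), and 3.05 without SCC 2. A second probe gave 1.60 (adjusted p = 0.0229) with the same overlap. Xist, the transcript of the inactive X chromosome, read 4.33 on WT 2, 2.27 on WT 3, 2.58 on SCC 2 and at least 13.75 on the other arrays. Its part in the Slc6a14 difference was not tested.

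The arrays lay on 3 slides, of which only slide 2 held both groups, with WT 5 and SCC 1 to 3. With slide as a fixed block the estimate came from those 4 arrays alone. Slc7a5 (1.16), Slc7a11 (3.87) and Slc7a1 (1.05) still passed and were at least 2-fold higher. Slc3a2 (0.29), Slc7a7 (0.44), Slc1a5 (-0.77), Slc1a4 (-1.24), Slc38a2 (0.33) and Slc6a14 (1.97) kept their sign but no longer passed.

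The ratio of 2 carriers on each array was compared between groups for 7 pairs, with exact two-sided permutation tests adjusted over the 7. A pair was a light chain and the heavy chain, or 2 carriers of 1 family or 1 exchange cycle. Each ratio is that of 2 probes, so only its change between groups is given. Relative to the heavy chain Slc3a2, Slc7a5 was higher in SCC by 0.68 and Slc7a11 by 2.98 in log2 units. Slc7a7 changed relative to Slc3a2 by 0.14, within the spread of the arrays (exact p = 0.302). Slc7a11 rose relative to Slc7a5 by 2.30. The glutamine exchanger Slc1a5 fell by 1.76 relative to the leucine carrier Slc7a5, and its change was 0.66 above that of Slc1a4. Slc38a1 fell by 0.54 relative to Slc38a2. These 6 ratios did not overlap between groups and reached an exact p of 0.00794, the smallest possible with 5 against 5 (adjusted 0.00926). With normexp, an alternative chosen after seeing the data, Slc7a11 rose by 1.15 relative to Slc3a2 and by 0.66 relative to Slc7a5, the ratio of Slc7a5 to Slc3a2 by 0.50 and that of Slc1a5 to Slc1a4 by 0.46. The groups then overlapped for those 4 ratios (adjusted exact p of 0.0370 to 0.0463) and stayed apart for Slc1a5 over Slc7a5 and Slc38a1 over Slc38a2.

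**Figure D3:**
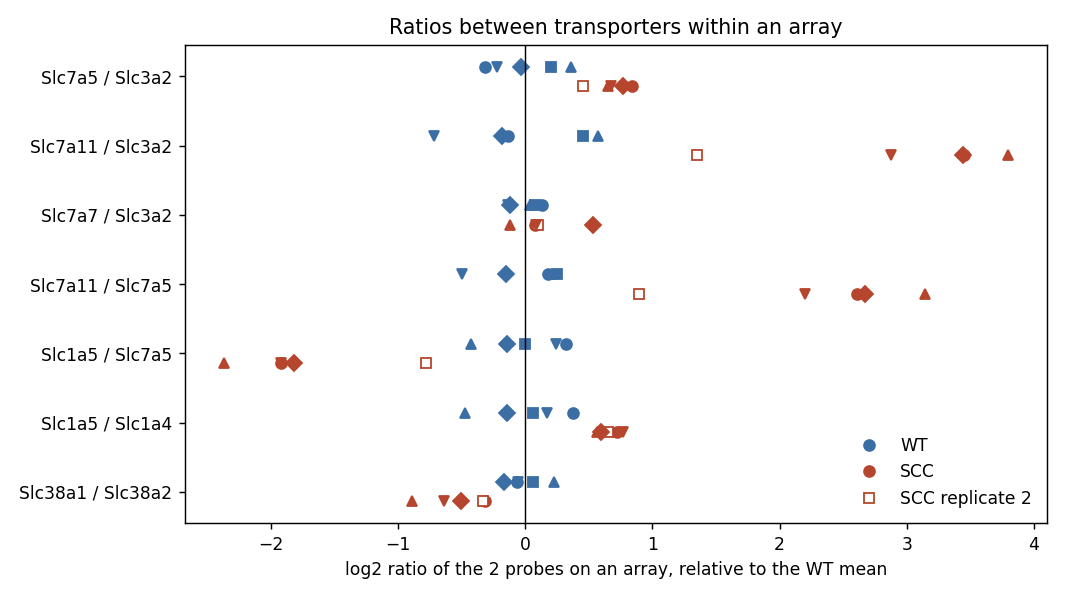
Log2 ratio of 2 carriers' probes on each WT (blue) and SCC (red) array, relative to the mean of the WT arrays, for 7 pairs; marker shapes are replicates 1 to 5 and the open square is SCC replicate 2. The groups are separate for every pair but Slc7a7 over Slc3a2, and SCC replicate 2 is nearest to the WT arrays for the 2 ratios of Slc7a11, for Slc7a5 over Slc3a2 and for Slc1a5 over Slc7a5.

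The other genes of heteromeric carriers moved both ways. Of 8 further heavy and light chains, 6 could be tested, since Slc7a12 and Slc7a13 were too dim. Slc7a8 (LAT2), a light chain for neutral amino acids, read 9.36 to 9.85 on the WT arrays, 10.08 on SCC 2 and 12.69 to 13.27 on the other SCC arrays, a difference of 2.86 (SE 0.56, adjusted p = 0.00233). Slc7a10 (Asc-1), a light chain for small neutral amino acids, read 12.73 to 13.01 on the WT arrays and 8.77, 10.83, 5.02, 7.92 and 8.25 on the SCC arrays, a difference of -4.74 (SE 0.85, adjusted p = 0.00136). Slc7a6 (y+LAT2) rose by 0.45 (adjusted p = 0.0236), below 2-fold. Slc3a1, the other heavy chain, differed by -0.57, its partner Slc7a9 by 0.37 and Slc7a15 by 0.03, and none of these passed (adjusted p = 0.389, 0.123 and 0.957). Without SCC 5, where both read lowest, Slc3a1 was at -0.02 and Slc7a15 at 0.48.

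Of 36 other amino acid transporters, 33 had a probe and 27 were tested. Among the 27, 5 passed as higher and 10 as lower, against 25.5% and 28.4% of all genes. Another 12 did not pass, and the median difference was -0.13. Those called were 3 higher and 6 lower, against 11.6% and 13.4% of all genes. Slc6a17, a vesicular carrier of neutral amino acids, read 5.61 to 5.78 on the WT arrays, 5.85 on SCC 2 and 8.31 to 8.92 on the others, a difference of 2.30 (adjusted p = 0.00411) that was 1.43 with normexp, while a dimmer probe gave 0.62 (adjusted p = 0.499). Slc32a1, the vesicular carrier of GABA and glycine, was well above background on no WT array and on 4 of the 5 SCC arrays, so it was tested only through the tumours. In quantile-normalized signal it was at least 3.10-fold higher (adjusted p = 0.0148), a bound that does not hold after normexp, where it differed by 0.59 and was not called. Slc7a2 (CAT2), a carrier of arginine, differed by 1.60 (adjusted p = 0.0332) with SCC 2 at 7.42, below the WT range of 7.57 to 8.002. That call was lost in 8 of the 10 fits with 1 array left out (all but those without SCC 2 or SCC 4), at 1.33 to 1.66.

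Those named among the carriers called lower were 5. Slc38a5 (SNAT5), a glutamine carrier, read 13.13 to 13.55 on the WT arrays and 8.64 to 11.51 on the SCC arrays, a difference of -3.39 (adjusted p = 0.000184). Of the glutamate carriers, Slc1a1 passed as higher by 0.51 (adjusted p = 0.0455, with overlap, picked after its value was seen, and 0.38 on a second probe, which did not pass), while Slc1a2, Slc1a3 and Slc1a6 differed by -2.38, -2.03 and -1.50 (adjusted p = 0.00180, 0.000455 and 0.00932), although 2 dimmer probes of Slc1a2 gave 0.84 and -0.35 and did not pass. With normexp Slc1a2 differed by -1.32, and Slc1a6 by -0.62, which was not called. Slc1a6 was at -0.97, also not called, without SCC 2 and SCC 5. Slc36a2 (PAT2), a proton-coupled carrier of small amino acids, differed by -1.67 (adjusted p = 0.000314). In these 5 genes, picked as the largest called differences, the groups did not overlap, which was so for 41.4% of all genes.

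**Figure D4:**
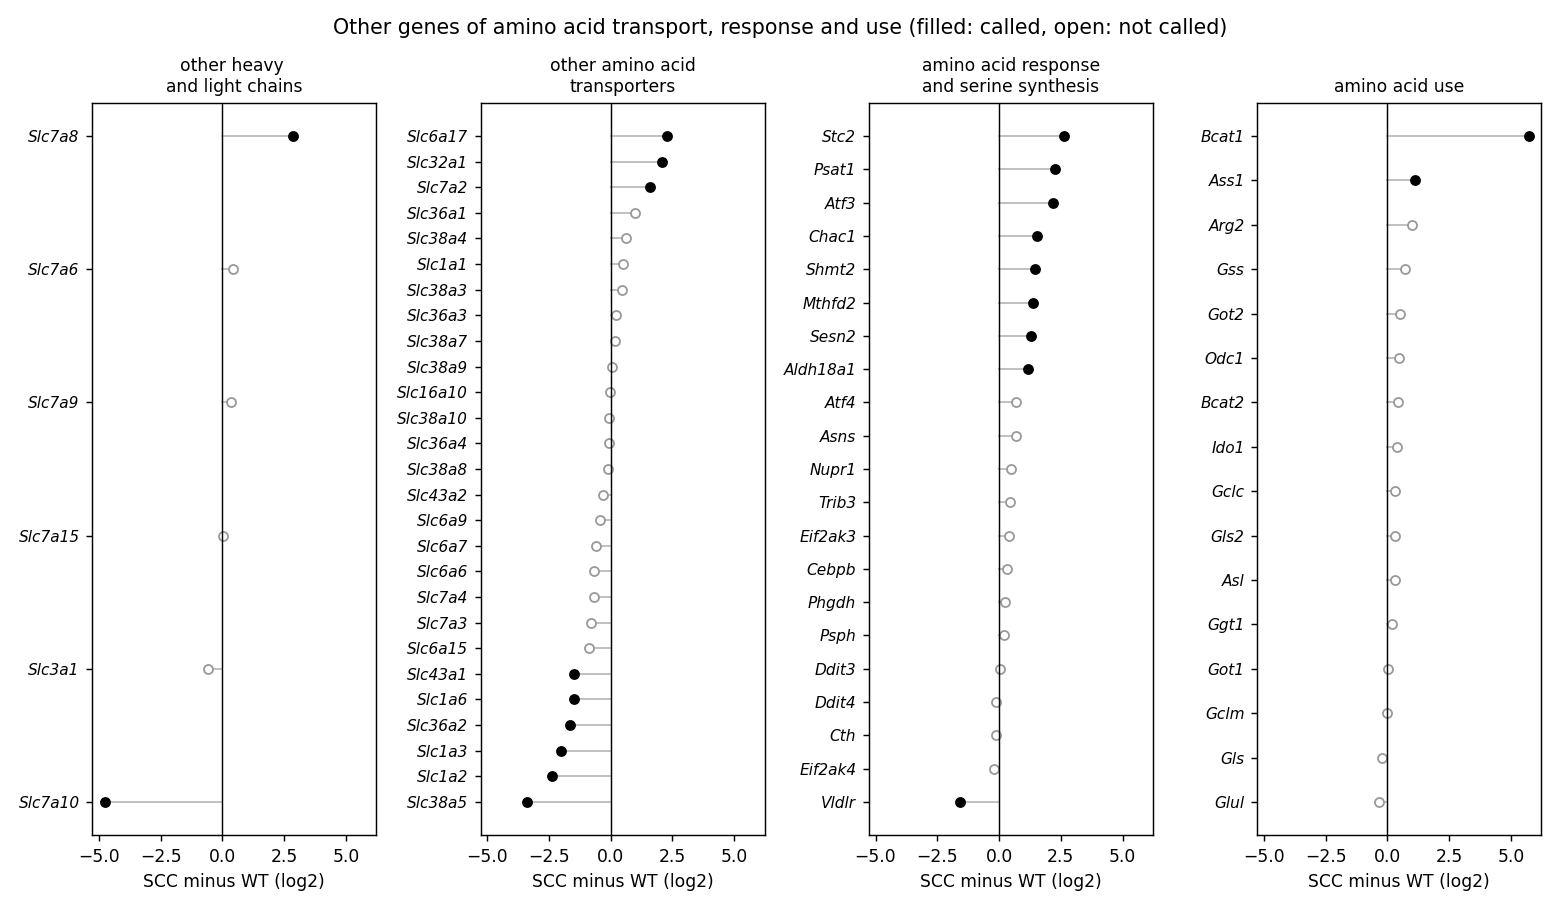
SCC minus WT difference (log2) of every tested gene in 4 lists: other heavy and light chains (6 genes), other amino acid transporters (27), the amino acid response with serine synthesis (21) and amino acid use (17, of which 1 is not drawn); filled points were called and open points were not. Calls go both ways in the transporter lists, while 8 of 9 calls in the response list and both drawn in the use list are higher in SCC.

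Genes of the amino acid response and of serine synthesis were called higher more often than lower. Several of them are known ATF4 targets, as are several, not all, of the carriers. Of 22 listed, 21 were tested, of which 11 passed as higher, 1 as lower and 9 did not pass, with a median of 0.49. Over all genes, 25.5% passed as higher and 28.4% as lower. Those called were 8 higher and 1 lower, against 11.6% and 13.4% of all genes. Psat1, the aminotransferase of serine synthesis, read 9.43 to 9.80 on the WT arrays, 10.63 on SCC 2 and 11.99 to 12.50 on the others, a difference of 2.26 (adjusted p = 0.000333). Stc2, a secreted glycoprotein of the stress response, read 7.61 to 8.19 on the WT arrays and 10.80, 12.26, 9.02, 10.07 and 10.47 on the SCC arrays, a difference of 2.65 in which SCC 2 was the highest (adjusted p = 0.00172).

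Atf3, a stress-induced transcription factor, differed by 2.20 (adjusted p = 0.0119), and Chac1, which degrades glutathione, by 1.54 (adjusted p = 0.0293). For both, SCC 2 read within or below the WT range (9.27 and 9.45) and the other tumours above it. The Chac1 call was lost in 7 of the 10 fits with 1 array left out (those without WT 3, 4 or 5 or without SCC 1, 3, 4 or 5), at 1.30 to 1.55. Shmt2, which makes glycine from serine in mitochondria, rose by 1.46 (adjusted p = 0.00592, with no value on WT 1), and Vldlr, a lipoprotein receptor, was lower by a difference of -1.57 (adjusted p = 0.000525). Among genes picked after their values were seen, Atf4 itself was 0.70 higher and Asns, asparagine synthetase, also 0.70 (adjusted p = 0.000101 and 0.00255), each without overlap. Ddit3, the ATF4 partner CHOP, differed by 0.02 and Trib3, a pseudokinase induced by it, by 0.44, and neither passed (adjusted p = 0.938 and 0.0638). The letters of the response element stood in the promoter windows of 7 of the 21 genes of the list that had a window.

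Of 18 genes of amino acid use, 17 were tested, of which 7 passed as higher, none as lower and 10 did not pass, with a median of 0.38. The shares of all genes that passed were 25.5% higher and 28.4% lower. Those called were 3, all higher, against 11.6% of all genes, of which Bcat1 and Ass1 are described. Bcat1, which removes the amino group of leucine and its relatives, read 2.18 to 4.61 on the WT arrays, 4.55 on SCC 2 and 9.80 to 11.41 on the others, with 1 WT array well above background and SCC 2 just below the highest WT value. The fitted difference of 5.71 (adjusted p = 0.00285) rests on those dim WT signals and was 2.79 with normexp. Its probe passed the filter only through the tumours. So did a dimmer probe, well above background on no WT array, which was at least 2.41-fold higher in quantile-normalized signal, with overlap (adjusted p = 0.0335). With slide as a fixed block the brighter probe was at 3.76 and its call was lost. Ass1, of arginine synthesis, rose by 1.14 (adjusted p = 0.0193) with SCC 2 inside the WT range, and by 0.99 without SCC 3, under 2-fold. With slide as a fixed block it was 0.51 and did not pass (adjusted p = 0.640). Among genes picked after their values were seen, Gclc and Gclm, whose enzyme uses cysteine to make glutathione, differed by 0.32 and -0.03 and did not pass (adjusted p = 0.413 and 0.937), while Gss, which completes that synthesis, rose by 0.73 without overlap (adjusted p = 0.000745).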

How the data were processed

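Total RNA from 5 WT lungs and 5 SCC tumours had been labelled with Cy3 and put on Agilent 4x44K arrays. Sample titles gave the group and the replicate number. Per the file headers and the methods, the authors extracted signals with Agilent Feature Extraction 12. Deposited scanner files give background-subtracted intensity for each spot on a linear scale, with flags. The authors also deposited log2 values, which matched the log2 quantile-normalized intensity of the same arrays (r of at least 0.9999) and served as an alternative. Their methods name quantile normalization, log2 transformation and a one-way analysis of variance. Here limma replaced that last step.

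After removal of control spots and of spots flagged as outliers, log2 processed intensities were averaged per probe and the 41174 probes quantile-normalized. A probe was tested if it was well above background on at least 4 of 5 arrays of a group (with at least 0.5 of its spots so flagged), which left 30374. Two-sided tests of the difference used lmFit and eBayes of limma 3.58.1 (R 4.3.3) on all 10 arrays without covariates, and p-values were adjusted over these probes by Benjamini-Hochberg. The same steps were tested on simulated data. Probes were named by accession through a RefSeq table (GRCm38.p6), which paired 28223 of 41174. The files use another build, so genes are given without coordinates, except promoter windows, which come from RefSeq alone.

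All 10 carriers were named. Of 4 further lists, the text names all heavy and light chains and, from the others, up to 5 called genes with the largest difference in each direction. Genes named outside this rule are marked in the text, except Ddit3, Trib3 and those named only for the slide block. The values of 1 called gene of amino acid use are not reported here. The carriers and lists were chosen with earlier results of these data known. Array number limits the precision, and p-values measure the spread between these samples. Alternatives were 75th-percentile scaling, normexp background correction, the deposited log2 values, a stricter and no filter on dim probes, the methods' test, array weights, the mean over the probes of a gene, slide as a fixed and a random block, the replicate number as a block, and leaving out arrays. The normexp correction used median spot signals, because the files hold no mean signals. Same-numbered arrays deviated from their group means with correlations of -0.10 to 0.01, so the numbers do not pair the arrays.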

Additional observations from a re-analysis of the deposited data

Results flagged for a closer look

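Within each group of 5 arrays, the gap between the highest or lowest array and its neighbour was divided by the range of the group and set against Dixon's critical value of 0.71. Over 20 such groups (10 carriers in WT and SCC), chance gives about 1 in 20, and 4 exceeded it. SCC 2 was the array in 3 of them. In SCC, Slc1a4 gave 0.858, with SCC 2 the highest tumour at 10.07 and the next at 9.10, and Slc1a5 gave 0.736, with SCC 2 the highest at 13.86 and the next at 12.95. Slc6a14 gave 0.821, with SCC 2 the lowest tumour at 10.05 and the next at 13.06. In WT, Slc7a7 gave 0.831, with WT 1 the highest lung at 12.38 and the next at 12.26, a gap smaller than that to the lowest tumour at 12.60.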

How the results depend on the processing

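Across the alternatives, 219 single values of the 10 carriers were recomputed: 206 kept their direction and their side of the adjusted p threshold, 12 kept the direction but no longer passed, and 1 reversed. With slide as a fixed block the difference of Slc38a1 became -0.124 (adjusted p = 0.790), which did not pass in either fit. That block called 3 carriers, 1 of the other transporters, 4 of the amino acid response and use genes and 2989 probes, against 5, 11, 12 and 6954. Its estimate rests on 4 arrays. Among the genes beyond the carriers, Slc1a2, Psat1, Mthfd2, Sesn2 and Aldh18a1 stayed called under it. The others called before kept their direction but missed the adjusted p threshold, with Slc7a10 at -4.52, Slc38a5 at -3.01, Slc7a8 at 2.39 and Stc2 at 3.06. With normexp, 3 carriers and 4036 probes were called. The adjusted p alone, with no 2-fold limit, gave 9, 18, 19 and 14878.

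Leaving out 1 array at a time gave 3 to 5 carriers called (3 without WT 5 or without SCC 3), 10 to 14 other transporters, 10 to 13 amino acid genes and 6385 to 8135 probes. Without SCC 2 and SCC 5 together, 5, 12 and 13 were called. With the replicate block, 5 carriers and 6571 probes were called, and Slc3a2 (0.34, adjusted p = 0.0848), Slc7a2 (1.60, adjusted p = 0.0542) and Chac1 (1.54, adjusted p = 0.0542) no longer passed. An analysis of variance as in the methods called 5 carriers after Benjamini-Hochberg, and also 5 where 2-fold and p below 0.01 without adjustment were required. As means over the probes of a gene, 4 carriers were called, and 4 with array weights. With 75th-percentile scaling the median difference of all probes was 0.03 and with quantile normalization -0.09, and the split of called probes was 3504 higher and 3080 lower against 3014 and 3940. Slc7a11 has no value when a probe must be well above background on all arrays. Dim WT signals limit the folds of Slc7a11, Slc32a1 and Bcat1.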
